A study of Mus musculus with 8 samples.

Results

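All CKO B-1a libraries, of both sorts, were compared with control B-1a cells to find the genes that lie on the same side of control whether or not the cells carry surface IgM. CKO mice were *Ctla4* fl/fl and control mice were *Ctla4*+/+, and both genotypes carry 1 allele of a Cre driver of the B lineage. The floxed line was BALB/c, and control mice came from Cre mice mated with BALB/c mice. The strain of the Cre line is not stated, so the backgrounds may be mixed. RNA was sequenced from splenic B-1a cells sorted by flow cytometry, in 2 libraries of IgMhi B-1a cells of CKO mice (numbers 2 and 3), 3 libraries of IgMneg B-1a cells of CKO mice (numbers 1, 2 and 3) and 3 libraries of IgMhi B-1a cells of control mice. CKO libraries of both sorts that bear the same number were taken to come from the same mouse, which the labels do not state, and the 5 CKO libraries would then stand for 3 mice. Control mice gave no IgMneg library, so among IgMneg cells genotype and sort cannot be told apart. The 8 libraries are the whole series, and each CKO sort was given equal weight. An age of 2 to 3 months is stated for the IgMhi cells. The Cre driver is active from early B-cell stages, and CKO and control mice came from separate breedings. All 5 CKO libraries lay above all 3 control libraries, or all below, for 385 of 10627 genes tested (3.62%). If the order of the 8 libraries were random for each gene, a share of about this size would be set apart. A place on one side of control therefore does not by itself show a change.

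B-1a cells are CD5+ B cells that arise mainly in fetal life, renew themselves in the adult and make natural antibodies, many of which bind self antigens. CTLA-4 is an inhibitory receptor that competes with CD28 for CD80 and CD86 and is best known from T cells. The gene groups below follow routes by which such cells receive signals. Cytokine receptors act through JAK kinases and STAT factors and are dampened by SOCS proteins, and the B-cell receptor acts through SYK, PI3K and mTOR. Interferons induce a family of GTPases that restrict microbes.

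The values are normalized counts, the reads of a gene divided by a size factor of its library. Reads in genes were 5279044 to 9639495 in the CKO libraries and 1404660 to 10289686 in the control libraries, and 1 read is worth 0.441 to 4.79 normalized counts. The ribosomal precursor Rn45s took 7.53% to 11.6% of reads in CKO and 4.62% to 25.1% in control libraries. Of 25 B-cell and B-1a genes, 24 were in the table and detected in every library, with summed levels of 41611 to 45454 normalized counts in CKO and 44432 to 47516 in control libraries. Of 23 T-cell genes 9 were in the table, with sums of 1902 to 3074 in CKO and 1749 to 2003 in control libraries. Of 20 myeloid genes 8 were in the table, with sums of 154 to 715 in CKO and 288 to 474 in control libraries. Of the 13 erythroid and platelet genes only *Alas2* was in the table, at 121 in CKO IgMneg library 3 and at most 8.86 in the others. The only measured NK-cell gene of 10, *Prf1*, had 7.76 to 26.3 in CKO and 0 to 11.5 in control libraries. Sex-linked genes were not balanced between the genotypes. The 4 Y-linked genes summed to 718, 1695 and 1691 normalized counts for control libraries 1, 2 and 3. CKO libraries numbered 3 reached 1524 (IgMhi) and 1620 (IgMneg), whereas those numbered 1 and 2 stayed at or below 3.88. *Xist* was at 2604 to 5413 for CKO numbers 1 and 2, and at most 10.6 for CKO number 3. Control library 1 held both kinds, with 2001 normalized counts of *Xist* and 258 of *Ddx3y*.

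*Ctla4* (chromosome 1, 60943844 to 60972676 of mm9) had 36.2 and 28.5 normalized counts in CKO IgMhi, 48.5, 73.8 and 33.0 in CKO IgMneg and 42.2, 43.1 and 76.8 in control B-1a cells. The groups overlapped, and the log2 fold change of -0.38 (SE 0.32) had an adjusted p of 0.911 in limma. Reads from floxed and retained exons are counted together, which leaves the genotype unchecked. *Cd5*, the surface marker of the sort, was at 178 and 151 in CKO IgMhi, 209, 246 and 155 in CKO IgMneg and 136, 129 and 138 in control cells, so every CKO library was above every control library. Its log2 fold change of 0.43 (SE 0.18) did not pass the test (adjusted p = 0.733, limma). *Spn*, which encodes CD43, had 958 and 1103 in CKO IgMhi, 2570.1, 1309 and 1875 in CKO IgMneg and 1421, 1115 and 1067 in control cells. Its CKO sorts differed by 0.85 on the log2 scale (limma adjusted p = 0.027).

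Groups were tested with limma on log2(normalized count + 1), a scale on which changes of low genes are understated, and p was adjusted over the 10627 genes by the Benjamini-Hochberg method, with a threshold of 0.05. It called 12 genes (0.113%), of which 8 were higher (0.0753%) and 4 lower (0.0376%) in CKO B-1a cells, and 10615 were not called. In bulk libraries fewer cells of a type and less RNA per cell cannot be told apart, and p measures the spread between these libraries. The count rests on several libraries. It was 6 without CKO IgMhi library 3, 7 without CKO IgMneg library 2, 4 without CKO IgMneg library 3, 6 without control library 1 and 4 without control library 2. Beside *Arl2bp* and *C130026I21Rik*, whose positions are given with their values, the genes that rose lie in mm9 on chromosome 2 (*Slpi*, 164179806 to 164214831, and *Gpr176*, 118102846 to 118199155), chromosome 9 (*Folr4*, 14690258 to 14708395), chromosome 13 (*Gadd45g*, 51942047 to 51943837), chromosome 14 (*Lmo7*, 102129145 to 102349230) and chromosome 15 (*Lifr*, 7079559 to 7147489). Those that fell lie on chromosome 11 (*Sfi1*, 3031853 to 3093466), chromosome 17 (*Dnah8* and *Glo1*) and chromosome X (*Ctps2*, 159339170 to 159470440). The plot by library shows all 12 genes.

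**Figure D1:**
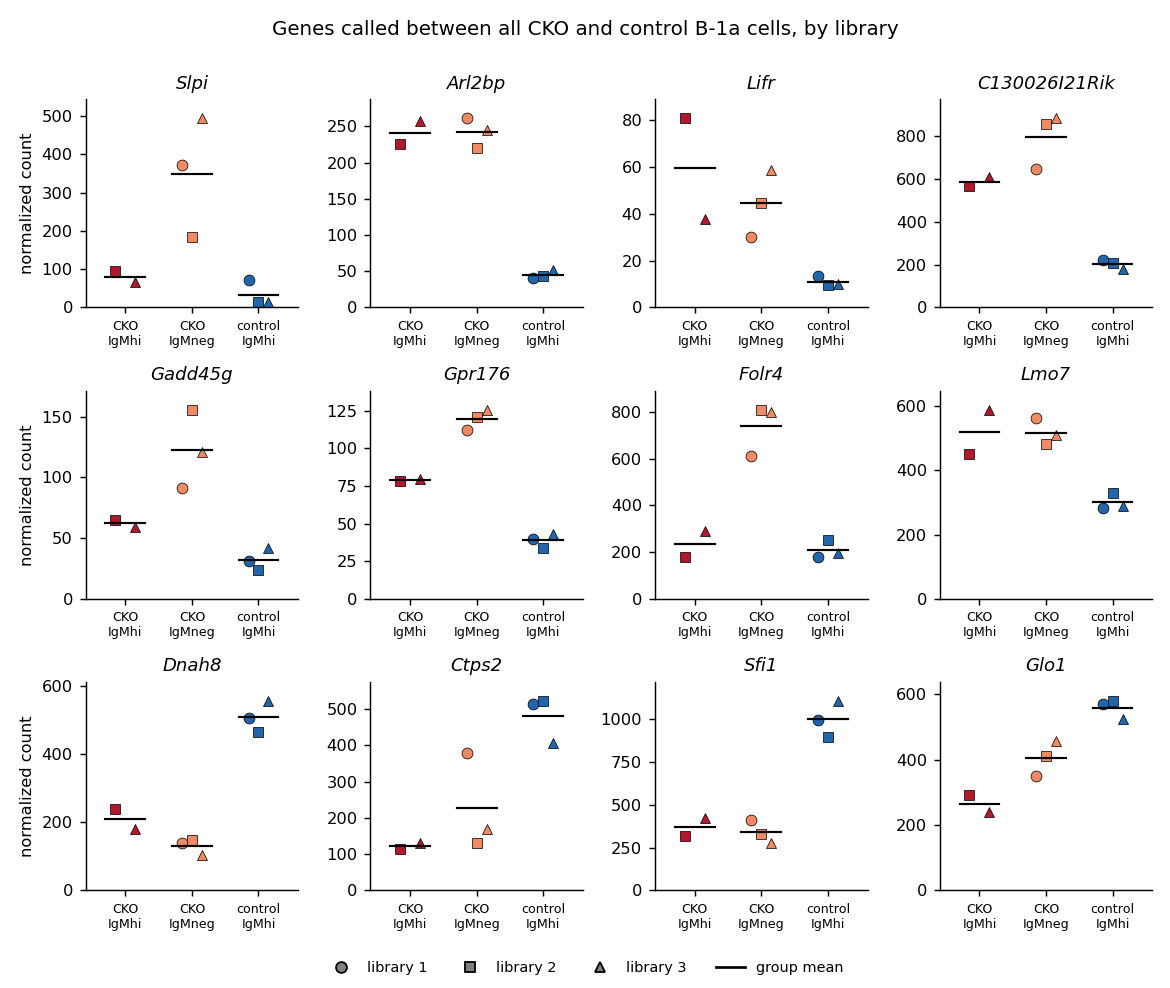
Normalized counts (y axis, linear, from 0) of the 12 called genes in CKO IgMhi, CKO IgMneg and control IgMhi B-1a cells, with 1 point per library, its shape giving the library number, and a bar at the group mean. CKO and control points are apart in 10 panels, while in *Slpi* and *Folr4* 1 of the 2 CKO IgMhi points lies within the control range.

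*Arl2bp*, a partner protein of the ARL2 GTPase (chromosome 8, 97190550 to 97198327), had the widest gap. It had 225 and 258 normalized counts in CKO IgMhi, 261, 220.0 and 244 in CKO IgMneg and 40.0, 43.1 and 51.2 in control B-1a cells. The lowest CKO value stood 2.08 log2 units above the highest control value, and the fold change was 2.41 on the log2 scale (SE 0.18, limma adjusted p = 2.03e-06). The CKO sorts differed by 0.00, with a 95% interval from -0.46 to 0.46.

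*C130026I21Rik*, a gene of the SP100 nuclear body family (chromosome 1, 84989265 to 85267141), rose by 1.74 (SE 0.14, limma adjusted p = 4.28e-06). Its values were 566 and 607 in CKO IgMhi, 643, 854 and 881 in CKO IgMneg and 220.1, 206 and 181 in control cells. The family has near-identical copies on chromosome 1, so reads may be shared among them and the count is uncertain. *Sp140* and *Ifi203*, the most abundant of the 10 measured genes of the SP100 and PYHIN list, had 1481 to 1939 and 560.5 to 929 in CKO libraries, against 1484 to 1841 and 538 to 938 in control libraries. None of the 9 others was called.

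*Lifr*, the receptor that pairs with gp130 to bind leukemia inhibitory factor, had 80.7 and 38.0 normalized counts in CKO IgMhi, 30.1, 44.5 and 58.7 in CKO IgMneg and 13.3, 9.58 and 10.1 in control cells. It rose by 2.06 (SE 0.37, limma adjusted p = 0.0412), and with the CKO mouse as a random block the adjusted p was 0.0732. *Gadd45g*, a stress-induced activator of the p38 and JNK kinases, had 64.9 and 59.5 in CKO IgMhi, 91.2, 156 and 121 in CKO IgMneg and 31.1, 23.9 and 41.5 in control cells. Its rise of 1.43 (SE 0.26) had an adjusted p of 0.0412 in limma and 0.0698 with that block.

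*Gpr176*, an orphan G protein-coupled receptor, had 78.5 and 79.8 in CKO IgMhi, 113, 121 and 126 in CKO IgMneg and 40.0, 33.5 and 43.2 in control cells, for a log2 fold change of 1.31 (SE 0.21, limma adjusted p = 0.0205). *Lmo7*, a LIM domain scaffold of cell junctions, had 449 and 588 in CKO IgMhi, 562, 482 and 509 in CKO IgMneg and 282, 330.3 and 288 in control cells. The rise of *Lmo7* was 0.78 (SE 0.14, limma adjusted p = 0.0348), with no call between the CKO sorts.

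*Slpi*, a secreted inhibitor of serine proteases, and *Folr4*, a folate receptor homolog known as a marker of T-cell subsets in the mouse, were called without a gap between the groups. *Slpi* had 94.3 and 65.2 in CKO IgMhi, 371, 183 and 493 in CKO IgMneg and 71.1, 14.4 and 13.7 in control cells, with a log2 fold change of 2.66 (SE 0.44, limma adjusted p = 0.0205), the control values coming from 32, 3 and 31 reads. *Folr4* had 181 and 289.9 in CKO IgMhi, 610.0, 809.9 and 802 in CKO IgMneg and 178, 254 and 196 in control cells, with a log2 fold change of 0.98 (SE 0.18, limma adjusted p = 0.038, or 0.0618 with the CKO mouse as a random block). In both genes the IgMneg libraries were the high ones. Among T-cell genes, *Lck* had 318 and 456 in CKO IgMhi, 707, 642 and 801 in CKO IgMneg and 333, 297 and 356 in control cells, and *Cd3g* had 45.3 and 53.2, then 184, 221 and 230.2, against 73.4, 95.8 and 63.1. *Cd2*, the most abundant of the list, had 1118 to 1346 in CKO and 1076 to 1352 in control libraries. *Cd28* and *Tcf7* were higher, and *Il2ra* and *Cd247* lower, in every CKO IgMneg than in either CKO IgMhi library. *Il2ra* had 18.9 and 22.8 in CKO IgMhi, 7.76, 2.38 and 6.15 in CKO IgMneg and 20.0, 14.4 and 20.3 in control cells. *Foxp3* overlapped between the sorts. *Cd3d*, *Cd3e*, *Cd4* and *Cd8a* were not among the genes analysed here, and the part of T cells in the *Folr4* values was not tested.

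The genes that fell in CKO B-1a cells were *Dnah8*, *Sfi1*, *Ctps2* and *Glo1*, and in each of them all CKO libraries were below all control libraries. *Dnah8*, an axonemal dynein heavy chain, had 238 and 182 normalized counts in CKO IgMhi, 138, 147 and 103 in CKO IgMneg and 507, 464 and 557 in control cells, for a log2 fold change of -1.63 (SE 0.16, limma adjusted p = 5.64e-05). *Sfi1*, a centrin-binding protein of the centrosome, had 318 and 423 in CKO IgMhi, 410.2, 326 and 278 in CKO IgMneg and 998, 895 and 1107 in control cells, for a log2 fold change of -1.51 (SE 0.15, limma adjusted p = 5.64e-05). Mouse *Sfi1* also has near-identical copies, so its count is uncertain. *Ctps2*, an X-linked CTP synthase, had 113 and 130.4 in CKO IgMhi, 378, 129 and 169 in CKO IgMneg and 514, 522 and 405 in control cells. It fell by 1.60 on the log2 scale (SE 0.25, limma adjusted p = 0.0184), with CKO IgMneg library 1 close to the control libraries.

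*Glo1*, the enzyme that clears methylglyoxal, had 291 and 241 in CKO IgMhi, 350.1, 411 and 456 in CKO IgMneg and 571, 579 and 523 in control cells, for a log2 fold change of -0.77 (SE 0.14, limma adjusted p = 0.0352). Of 26 measured genes of methylglyoxal, glutathione and redox metabolism *Glo1* alone was called, and the median log2 fold change was 0.01, as it was over all genes tested. Of 32 nucleotide synthesis genes *Ctps2* alone was called, and the median was 0.12. *Gpx1* and *Gpx4*, the most abundant redox genes, had log2 fold changes of 0.17 and 0.04, and *Nme2* and *Impdh2*, the most abundant of nucleotide synthesis, 0.16 and 0.11.

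*Dnah8* and *Glo1* are neighbours. *Glo1* lies at 30729811 to 30749604 and *Dnah8* at 30761299 to 31012209 of chromosome 17, with 11695 bases between them, and no other called genes lay within 1 Mb of each other. The 19 other genes tested within 1.5 Mb of *Glo1* had log2 fold changes from -0.48 (*Tbc1d22b*) to 0.15 (*U2af1*). None of them was called and none was free of overlap. CKO and control mice were bred apart, so sequence differences linked to either line and the deletion cannot be told apart.

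A further cluster lies on chromosome 7. *Pirb*, an inhibitory receptor for MHC class I on B and myeloid cells, had 179 and 45.6 in CKO IgMhi, 31.0, 127 and 30.7 in CKO IgMneg and 322, 273 and 375 in control B-1a cells. With a log2 fold change of -2.24 (SE 0.43) it was the nearest to the threshold among genes not called (limma adjusted p = 0.0616), and the adjusted p was 0.0398 with the CKO mouse as a random block. Among CKO libraries the values were 179 and 127 under number 2 and 45.6 and 30.7 under number 3. *Pira2*, an activating receptor of the same family, had 30.2 and 1.90 in CKO IgMhi, 0, 30.2 and 7.26 in CKO IgMneg and 53.4, 43.1 and 43.2 in control cells, again with the higher values under number 2. *Lilra6*, a further activating member, had 28.1 to 46.1 in CKO and 52.7 to 64.5 in control libraries. The paired receptors have near-identical copies, so reads may be shared among them. Of the 32 other genes tested within 1.5 Mb of *Pirb*, 5 were free of overlap (15.6%, against 3.62% of all genes), among them *Isoc2b*, with 13.6 to 30.2 in CKO and 4.45 to 4.85 in control libraries, and none was called. The control values of *Isoc2b* came from 2, 1 and 11 reads.

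**Figure D2:**
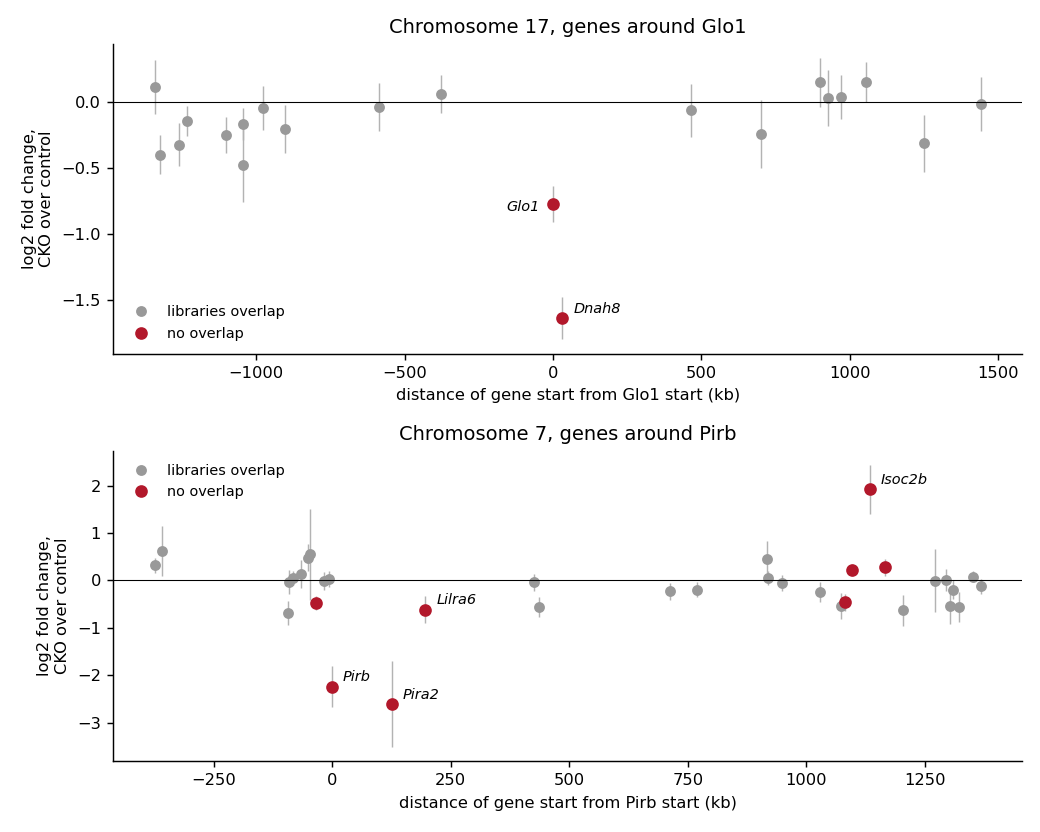
Log2 fold change of CKO over control B-1a cells (y axis, with bars of 1 SE) for the genes around *Glo1* on chromosome 17 and around *Pirb* on chromosome 7, against distance of the gene start from that of *Glo1* or *Pirb* in kb (x axis). Red points are genes without overlap between CKO and control libraries. *Glo1* and *Dnah8*, at -0.77 and -1.63, stand below all 19 neighbours, and *Pirb* and *Pira2*, at -2.24 and -2.61, below the rest of their window.

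Near the deleted gene, 71 genes tested lay within 10 Mb of *Ctla4*, and none was called. Free of overlap were 3 higher and 2 lower genes (7.04%, against 3.62% of all genes). *Bmpr2*, a receptor for bone morphogenetic proteins, had 11.6 to 18.4 in CKO and 35.6 to 38.3 in control libraries, and *Carf*, *Fastkd2* and *Pikfyve* were also among these genes.

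The 385 genes without overlap were 189 higher (1.78% of genes tested) and 196 lower (1.84%). These genes were chosen by their values in this comparison, so their fold changes describe them and carry no test. The median log2 fold change was 0.43 in the higher genes, from 0.11 to 3.23, and -0.51 in the lower genes, from -2.74 to -0.08. Differences were at least 1 on the log2 scale in 33 higher and 41 lower genes, and 289 of the 385 reached a mean of 50 normalized counts in the higher group. Most gaps were narrow, with a median of 0.086 log2 units between the nearest CKO and control libraries. At the edge, *Usp39* had 273 to 310.5 in CKO and 244 to 273 in control libraries and was just inside, while *Itgav*, at 303 to 384 in CKO and 220.2 to 303 in control libraries, was just outside. On the lower side *Eci2* was just inside, with 148 to 168 in CKO and 168 to 206 in control libraries.

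The higher genes had a median exon length of 3687 bases and a GC content of 48.9%, the lower genes 3218 bases and 51.0%, and all genes tested 3714 bases and 49.5%. The median level over libraries was 168 normalized counts in the higher, 95.7 in the lower and 154 in all genes. A control library had under 10 reads in 104 of the 385 genes (27.0%) and in 2359 of all genes tested (22.2%). Scaled by total count, which moved the all-gene median of log2 fold changes to 0.11, 141 of the 385 kept their side without overlap, and with every library thinned to the shallowest 149 did. Under each of TMM, quantile and total count scaling, removal of the length and GC trend, and thinning, 65 genes kept it, 35 higher and 30 lower. Among the 65 were *Arl2bp*, *C130026I21Rik*, *Gpr176*, *Lmo7*, *Dnah8*, *Sfi1*, *Glo1*, *Pirb*, *Pira2*, *Bmpr2*, *Cish*, *Cd83*, *Nfil3*, *Ddit4* and *H1f0*.

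Of the 29 gene lists, that of JAK-STAT signaling held the most genes without overlap. Of 50 measured, 5 were higher in every CKO library and 1 lower (6 of 50, against 3.62% of all genes), and *Lifr* alone passed the test. The median log2 fold change of the 50 was 0.06, against 0.01 for all genes tested. The list was chosen with results of these libraries known and holds no independent evidence of direction. Its most abundant members, the phosphatase *Ptpn6* and the kinase *Jak1*, had 3113 to 4952 and 1550.0 to 2342 in CKO libraries, against 4112 to 4281 and 1723 to 1867 in control libraries.

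Among the receptors, *Csf2rb2*, the mouse beta chain of the IL-3 receptor, had 27.9 and 93.1 normalized counts in CKO IgMhi, 17.5, 33.4 and 11.7 in CKO IgMneg and 11.1, 9.58 and 6.62 in control cells. These came from 18 to 147 reads in CKO and from 5, 2 and 15 reads in control libraries. *Ifnar2*, a subunit of the type I interferon receptor, had 155 and 179 in CKO IgMhi, 185, 143 and 119.6 in CKO IgMneg and 225, 225 and 192 in control cells, for a log2 fold change of -0.45. *Stat5a*, the transcription factor, had 265 and 277 in CKO IgMhi, 323, 271 and 305 in CKO IgMneg and 227, 254 and 236 in control cells, a narrow gap with a log2 fold change of 0.25. None of these passed the test (limma adjusted p from 0.445 to 0.828).

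The feedback inhibitors *Cish* and *Socs1*, which STAT factors induce, were higher in every CKO library. *Cish* had 30.2 and 54.4 in CKO IgMhi, 17.5, 24.6 and 27.4 in CKO IgMneg and 4.45, 14.4 and 9.70 in control cells, from 18 to 86 reads in CKO and 2, 3 and 22 reads in control libraries. Its log2 fold change was 1.71 (SE 0.46, limma adjusted p = 0.324). *Socs1* had 97.3 and 38.0 in CKO IgMhi, 49.5, 73.1 and 62.6 in CKO IgMneg and 37.8, 23.9 and 37.5 in control cells, for a log2 fold change of 0.89 (SE 0.32, limma adjusted p = 0.675). In *Lifr* and *Socs1* the highest value was that of CKO IgMhi library 2, and in *Csf2rb2* and *Cish* that of CKO IgMhi library 3.

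**Figure D3:**
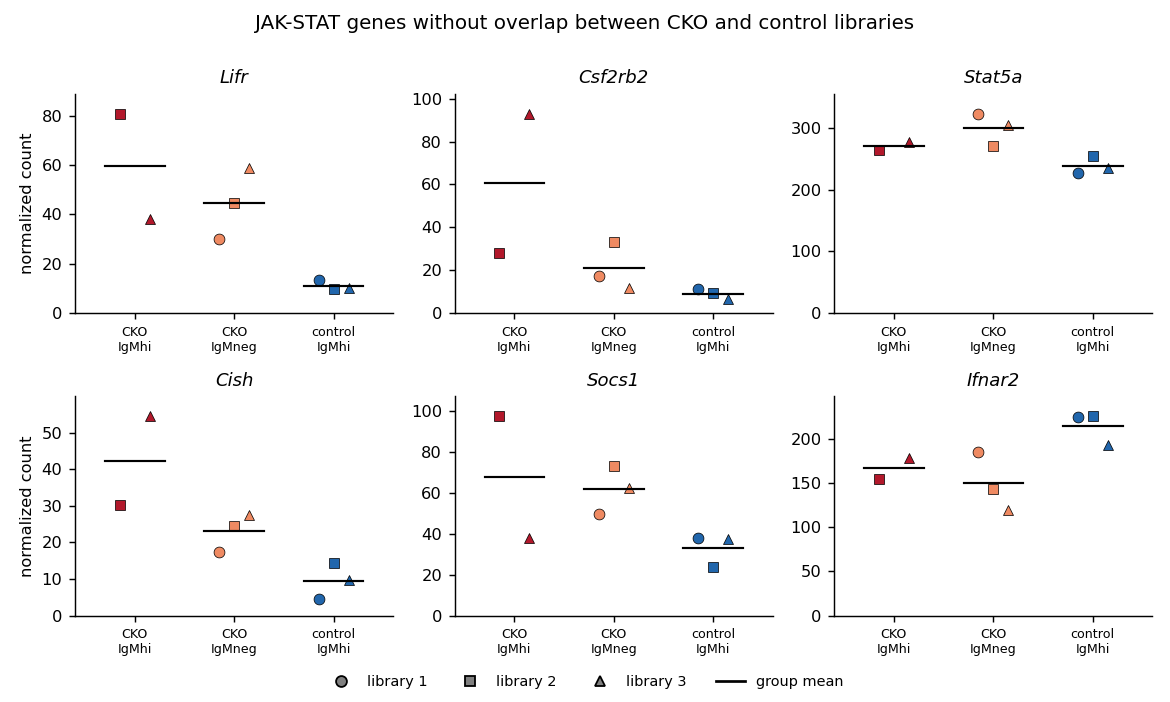
Normalized counts (y axis, linear, from 0) of the 6 JAK-STAT genes without overlap, in CKO IgMhi, CKO IgMneg and control IgMhi B-1a cells, with 1 point per library and a bar at the group mean. *Lifr*, *Csf2rb2*, *Stat5a*, *Cish* and *Socs1* are higher in every CKO library and *Ifnar2* is lower, and the 2 CKO IgMhi points of *Lifr*, *Csf2rb2*, *Cish* and *Socs1* are far apart.

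STAT5 binds the palindrome TTCNNNGAA, which reads the same on both strands. The promoters of the 5 higher JAK-STAT genes were searched for it in RefSeq sequence of GRCm38.p6, from 250 bases before to 50 bases after each annotated start. It occurred in 2726 of 32851 mouse promoters of that length (8.30%) and at least 2 times in 150 (0.457%). The *Cish* promoter held 2 copies and that of *Csf2rb2* held 1, while the windows of *Socs1*, *Lifr* and *Stat5a* held none. The promoter stretches that hold matches are shown from 50 bases before the start to 30 bases after it, with matches in capitals. *Cish* is at chr9:107296609-107296688 on the plus strand and *Csf2rb2* at chr15:78305692-78305771 on the minus strand.
Cish: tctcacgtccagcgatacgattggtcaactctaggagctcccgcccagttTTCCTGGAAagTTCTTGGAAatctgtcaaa
Csf2rb2: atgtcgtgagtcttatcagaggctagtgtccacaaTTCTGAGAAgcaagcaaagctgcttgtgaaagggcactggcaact
A match describes the letters only and does not show binding in these cells. Promoters of the other genes of the list were not searched, so the higher genes cannot be compared with them. In *Cish* the matches begin at the start and 11 bases after it, and in *Csf2rb2* the match begins 15 bases before the start.

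A few interferon-induced GTPases lay above control. Of 46 measured interferon response genes, *Gbp3*, *Gbp7* and *Iigp1* were higher in every CKO library and none was lower (6.52%, against 3.62% of all genes). The other 43 overlapped, none was called, and the median log2 fold change was 0.09. *Gbp7*, a guanylate-binding protein, had 764 and 755 in CKO IgMhi, 525, 540.0 and 511 in CKO IgMneg and 458, 503 and 447 in control cells, with a log2 fold change of 0.43 (SE 0.12, limma adjusted p = 0.333). The IgMneg values lay close to control and the IgMhi values stood apart. *Gbp2b*, outside that list and picked for its side, had 367 and 302 in CKO IgMhi, 389, 467 and 369.9 in CKO IgMneg and 220.1, 278 and 246 in control cells. *Gbp3* had 457 to 609 in CKO and 404 to 440.2 in control libraries.

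The immunity-related GTPases *Tgtp2* and *Iigp1* lay on the same side, and *Tgtp2* too is outside the list and was picked for its side. *Tgtp2* had 146 and 79.8 in CKO IgMhi, 115, 188 and 97.2 in CKO IgMneg and 31.1, 57.5 and 79.0 in control cells. *Iigp1* was near the lower limit of detection, at 18.9 and 8.86 in CKO IgMhi, 5.82, 13.5 and 29.6 in CKO IgMneg and 4.45, 0 and 3.97 in control cells. Copies of these GTPases are alike in sequence, so reads may be shared between them. *Sp140*, among the most abundant genes of the list, overlapped between the groups. *Tbx21*, which encodes the interferon-linked factor T-bet, had 15.1 and 17.7 in CKO IgMhi, 24.2, 15.9 and 57.0 in CKO IgMneg and 6.67, 4.79 and 10.1 in control cells. *Nfil3*, a basic leucine zipper factor, had 49.8 and 19.0 in CKO IgMhi, 18.4, 43.7 and 45.3 in CKO IgMneg and 4.45, 9.58 and 12.8 in control cells, for a log2 fold change of 1.83 (SE 0.49, limma adjusted p = 0.318). The control values came from 3, 1 and 23 reads of *Tbx21* and from 2, 2 and 29 reads of *Nfil3*.

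Of 72 measured genes of B-cell receptor and PI3K signaling, 3 were higher and 1 lower in every CKO library (5.56%, against 3.62% of all genes). None was called, and the median log2 fold change was 0.01. *Pik3cd*, the catalytic subunit p110 delta, had 1369 and 1931 in CKO IgMhi, 1588, 1359 and 1664 in CKO IgMneg and 1178, 1077 and 1340.2 in control cells, for a log2 fold change of 0.40 (SE 0.14, limma adjusted p = 0.646). *Vav1*, a guanine exchange factor below the receptor, had 1087 to 1172 in CKO and 867 to 1084 in control libraries. *Cd79b* and *Syk*, the most abundant of the list, had 8858 to 11184 and 3741 to 5397 in CKO libraries, against 10873 to 11269.8 and 4874 to 5609 in control libraries.

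Genes around the mTOR complexes lay on both sides of control. *Tsc1*, whose product restrains mTORC1 together with that of *Tsc2*, had 339 and 416 in CKO IgMhi, 495, 476 and 353 in CKO IgMneg and 325, 225 and 313 in control cells. The values of *Tsc2* overlapped. *Ddit4*, which encodes the stress-induced inhibitor REDD1, had 135 and 118 in CKO IgMhi, 88.3, 101 and 144 in CKO IgMneg and 71.1, 62.2 and 63.1 in control cells, for a log2 fold change of 0.83 (SE 0.21, limma adjusted p = 0.288). *Pdcd4*, an inhibitor of translation that mTORC1 signaling removes, had 779 to 1252 in CKO and 749 to 766 in control libraries. Of the mTORC2 subunits, *Mtor*, *Mlst8* and *Mapkap1* overlapped between the groups, while *Rictor* and *Prr5* were lower in every CKO library. *Rictor* had 439.9 and 387 in CKO IgMhi, 380.2, 345 and 379 in CKO IgMneg and 478, 484 and 516 in control cells, and *Prr5* had 174 and 206, then 162, 138 and 134, against 253, 244 and 236. The log2 fold change of *Rictor* was -0.34 (SE 0.12) and that of *Prr5* was -0.56 (SE 0.15), and neither passed the test (limma adjusted p = 0.675 and 0.333). *Prkca*, a protein kinase C that mTORC2 phosphorylates, had 428 to 617 in CKO and 384 to 389 in control libraries, and *Rasgrp2*, an activator of RAP GTPases, had 286 to 415 in CKO and 464 to 507 in control libraries. *Ddit4*, *Pdcd4*, *Prr5*, *Prkca* and *Rasgrp2* are outside the list and were picked for their place on one side of control.

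A few surface molecules of B-1a and activated B cells lay above control. Of 24 genes of B-cell and B-1a identity, *Cd5*, *Plscr1* and *Cd300lf* were higher in every CKO library and none was lower (12.5%, against 3.62% of all genes). None was called, and the median log2 fold change was -0.06. *Cd300lf*, an inhibitory receptor for phospholipids, had 218 and 398 in CKO IgMhi, 291, 359 and 394 in CKO IgMneg and 158, 211 and 210.0 in control cells. *Plscr1*, a phospholipid scramblase, had 437 to 593 in CKO and 320.1 to 419.5 in control libraries. *Ms4a1*, which encodes CD20 and is the most abundant gene of the list, had 10574 to 14160.5 in CKO and 11874 to 15402 in control libraries.

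*Cd83*, a surface marker of activated B cells, had 2096 and 1878 in CKO IgMhi, 2342, 3121 and 2728 in CKO IgMneg and 1647, 1455 and 1522 in control cells. Its log2 fold change was 0.59 (SE 0.12, limma adjusted p = 0.132), and the values did not overlap under any of the 5 scalings above. *Cd38* had 1351 to 1613 in CKO and 1189 to 1336 in control libraries. *Gcsam*, a germinal center signaling adaptor, had 4.53 and 1.90 in CKO IgMhi, 14.5, 17.5 and 36.3 in CKO IgMneg and no read in any control library. The CKO values of *Gcsam* came from 3 to 65 reads. Control libraries 1 and 2 were the shallowest, while control library 3 was the deepest, with 10289686 reads in genes. *Cxcr5*, the receptor for the follicle chemokine CXCL13, had 1730.2 to 1984 in CKO and 2019 to 2305 in control libraries. Of 23 germinal center and activation genes, 2 were higher and 1 lower in every CKO library (3 of 23, against 3.62% of all genes), with a median log2 fold change of 0.18 and no call, and of 15 marginal zone and follicular genes *Cxcr5* alone was free of overlap (6.67%), with a median of -0.08. *Pou2af1* and *Cd24a*, abundant genes of those lists, had 2849 to 3308 and 1577 to 2821 in CKO libraries, against 3241 to 4044 and 2738 to 3143 in control libraries.

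For the cell cycle, 1 of 25 genes of G1 phase control and 2 of 60 genes of S phase, G2 and mitosis were higher in every CKO library and none was lower or called. These shares, 4.0% and 3.33%, are near the 3.62% of all genes. The genes were *Cdk2*, with 163 to 203 in CKO and 131 to 163 in control libraries, and the replication initiation genes *Orc6* and *Cdc45*. *Orc6* had 93.6 and 118 in CKO IgMhi, 119, 122 and 106 in CKO IgMneg and 77.8, 76.6 and 74.1 in control cells, and *Cdc45* had 61.1 to 71.5 in CKO and 44.5 to 60.9 in control libraries. The median log2 fold change of the S, G2 and mitosis list was 0.15, with 42 of 60 genes above 0, and that of the G1 list was -0.02. Over all genes tested, 5584 of 10627 were above 0. *Ccnd2*, the most abundant of the G1 list, was high in CKO IgMhi cells alone, with 1289 and 2066 in CKO IgMhi, 426, 546 and 567 in CKO IgMneg and 516, 627 and 545 in control cells. *Pcna* and *Smc4*, the most abundant of the S, G2 and mitosis list, had 977 to 1374 and 879 to 1570.2 in CKO libraries, against 896 to 1025 and 885 to 1053 in control libraries.

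Among 6 measured genes of linker histones, which bind DNA between nucleosomes, *H1f0*, *Hist1h1c* and *Hist1h1e* were lower in every CKO library, while *Hist1h1a*, *Hist1h1b* and *Hist1h1d* overlapped. Over all genes tested, 3.62% were free of overlap and 1.84% were lower in every CKO library. *H1f0*, the replication-independent variant, had 64.9 and 57.6 in CKO IgMhi, 90.2, 51.6 and 98.4 in CKO IgMneg and 138, 168 and 119.5 in control cells, for a log2 fold change of -1.02 (SE 0.24, limma adjusted p = 0.182). *Hist1h1e* had 1548 and 819.7 in CKO IgMhi, 912, 1355 and 1194 in CKO IgMneg and 2069.7, 1791 and 1821 in control cells, and *Hist1h1c* had 1803 to 2926 in CKO and 2987 to 3329.7 in control libraries. For both the CKO values nearest to control were those under number 2. None of the 6 genes was called, and linker histones were picked after their values were seen. Of 64 genes of activating chromatin marks none was higher in every CKO library and 2 were lower (3.12%, against 3.62% of all genes). These were *Men1*, a subunit of MLL complexes, with 116 to 150.2 in CKO and 154 to 196 in control libraries, and *Ing4*, a reader of methylated histone H3, with 132 to 173 in CKO and 178 to 192 in control libraries. The median of this list was 0.41 in CKO IgMhi and -0.26 in CKO IgMneg cells against control, and 0.11 over both sorts. None of the 51 genes of repressive marks was free of overlap.

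No gene of antigen presentation was called. Of 25 measured MHC class II pathway genes *H2-Eb2*, a class II beta chain gene, alone was free of overlap (4%, against 3.62% of all genes). It had 111 and 99.4 in CKO IgMhi, 164, 182 and 131 in CKO IgMneg and 53.4, 91.0 and 81.2 in control cells. The invariant chain gene *Cd74* had 16337 to 23022 in CKO and 16857 to 20899 in control libraries, and *H2-Ea-ps* had 9162 to 15463 in CKO and 10084 to 11548 in control libraries. Of 47 genes of class I loading and the proteasome, *Psmd6*, a proteasome subunit, alone was free of overlap (2.13%). It was higher in every CKO library, with 404 to 606 in CKO and 385 to 393 in control libraries. *B2m* and *Psmb8*, the most abundant of these, had log2 fold changes of -0.39 and 0.16 and overlapped.

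Several adhesion and surface genes of other families, picked for their side, lay below control. *Thbd*, the thrombin receptor thrombomodulin, had 41.5 and 24.7 in CKO IgMhi, 29.1, 17.5 and 10.1 in CKO IgMneg and 82.3, 76.6 and 50.3 in control cells. *Lynx1*, of the Ly6 family, had 40.0 and 48.7 in CKO IgMhi, 56.3, 20.6 and 15.1 in CKO IgMneg and 86.7, 86.2 and 86.5 in control cells, and *Ly6d*, of the same family on chromosome 15, had 382 to 638 in CKO and 665 to 829 in control libraries. *F11r*, the junction protein JAM-A, had 0 to 16.7 in CKO and 27.4 to 31.1 in control libraries, and *Slamf7*, a SLAM family receptor, had 202 to 375 in CKO and 403 to 431 in control libraries. *Chic1*, a membrane protein gene on chromosome X, had 28.7 and 39.2 in CKO IgMhi, 47.5, 42.9 and 56.4 in CKO IgMneg and 82.3, 148 and 91.8 in control cells, and was among the nearest to the threshold (log2 fold change -1.34, SE 0.26, limma adjusted p = 0.0723). On the higher side *Tubb2b*, a beta tubulin, had 81.5 and 96.2 in CKO IgMhi, 50.4, 68.3 and 58.1 in CKO IgMneg and 40.0, 19.2 and 30.4 in control cells, and *Pgd*, an enzyme of the pentose phosphate pathway, had 156 to 305 in CKO and 133 to 149 in control libraries.

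Over all 29 lists, 947 of 1044 genes were measured. Of these 947 genes 36 were free of overlap, a share near the 3.62% of all genes tested. At least 1 such gene stood in 18 lists and none in 11, and 7 lists held a called gene. The list medians lay between -0.13 and 0.21 on the log2 scale, except for T-cell markers at 0.67 (9 genes), myeloid markers at -0.46 (7 genes), NK-cell markers at 1.35 (1 gene) and Y-linked genes at -4.43 (4 genes).

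**Figure D4:**
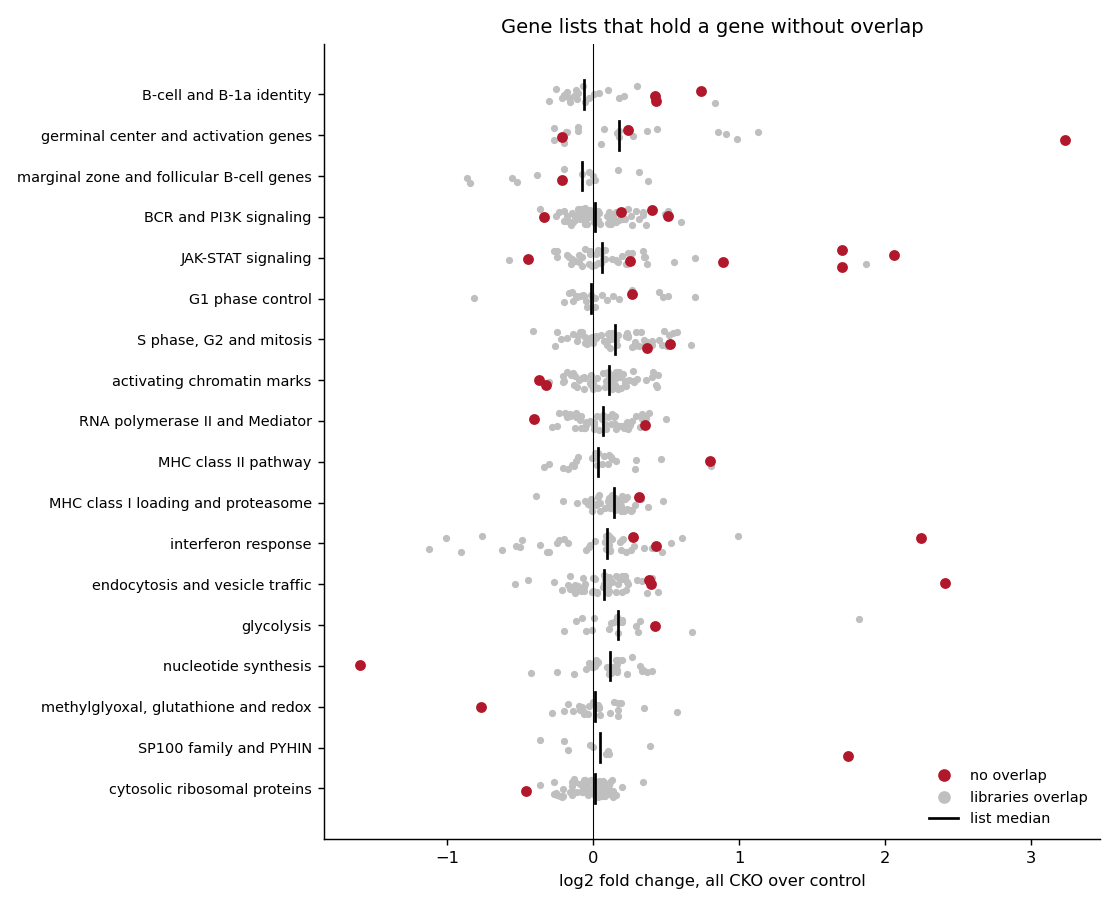
Log2 fold change of all CKO over control B-1a cells (x axis) for the measured genes of the 18 lists that hold a gene without overlap, with 1 point per gene and a bar at the list median. Red points are genes without overlap between CKO and control libraries, which stand away from list medians that lie between -0.08 and 0.18.

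Both CKO sorts were also set against each other, in the same fit. Of 10627 genes, 800 (7.53%) differed between CKO IgMneg and CKO IgMhi cells. Of the 385 genes without overlap 3 did (0.779%), and as these were chosen for lying on one side of control in both sorts, which by itself lowers that share, nothing is read from it. The 3 genes were *Dnah8*, *Glo1* and *Gbp7*, and of the 12 called genes *Slpi* and *Folr4* also differed. The log2 fold change of *Glo1* against control was -0.47 in CKO IgMneg and -1.07 in CKO IgMhi cells. That of *Dnah8* was -1.98 in CKO IgMneg and -1.28 in CKO IgMhi cells. These values share the 3 control libraries. For *Arl2bp*, *Lmo7* and *Sfi1* the fold change against control was 2.41, 0.78 and -1.57 in CKO IgMneg and 2.41, 0.78 and -1.44 in CKO IgMhi cells, and a p that misses the threshold does not show that the sorts are alike.

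**Figure D5:**
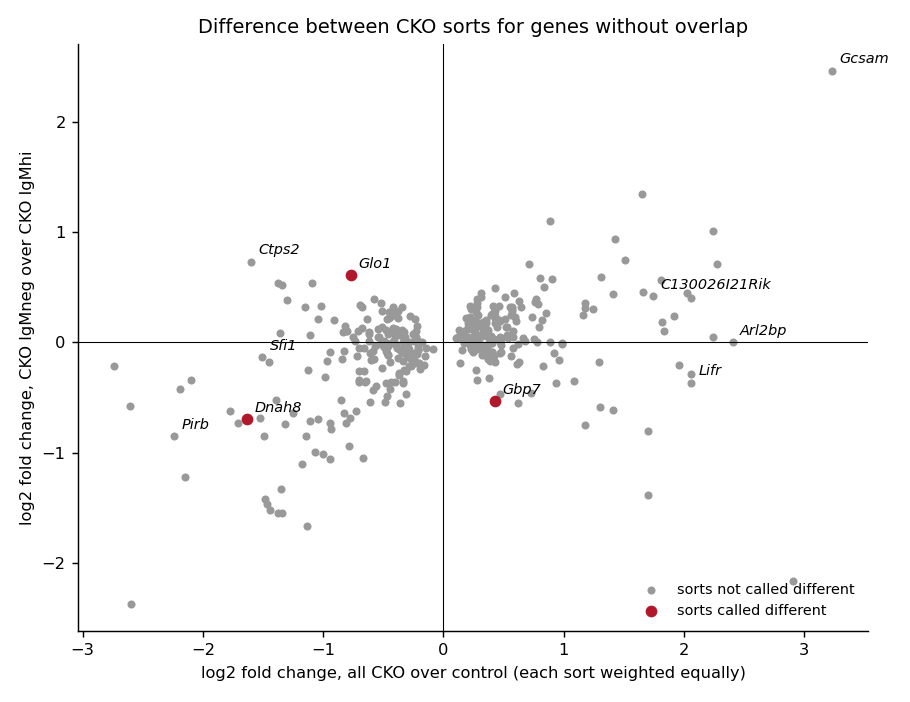
Log2 fold change of CKO IgMneg over CKO IgMhi (y axis) against that of all CKO over control B-1a cells (x axis) for the 385 genes without overlap, with 1 point per gene. Red points are the 3 genes called between the sorts, *Dnah8* at -0.70, *Gbp7* at -0.53 and *Glo1* at 0.61.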

How the data were processed

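RNA of sorted splenic B-1a cells was sequenced by the authors after depletion of ribosomal RNA, in 8 libraries of 3 groups. The authors aligned reads to mm9 with TopHat2 2.0.13, assigned them to genes with HTSeq 0.6.0 (union mode) and divided the counts of each library by a DESeq2 size factor in R 3.3.1, so the deposited values are a signal in normalized counts. All values (100%) were whole multiples of a step of their library within 0.01 read, and whole reads were recovered from them. Reads in genes were 1404660 to 10289686 per library. Strandedness of counting, mouse sex and pooling are not given in the sources used here, so overlapping antisense genes are uncertain. Of 10783 genes, 98.15% were matched by name to an mm9 annotation, 17 names had turned into dates, and some results are not reported here.

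In R 4.3.3, limma 3.58.1 with a trend was fitted to log2 of the value plus 1 over 3 groups, for the 10627 genes that reached 10 normalized counts in 2 or more libraries. The contrast was the mean of both CKO groups minus control, two-sided, adjusted by Benjamini-Hochberg with a threshold of 0.05. On simulated counts of this comparison, 84% of genes changed by a log2 fold of 1 and 100% of those changed by 2 were recovered among 10627 genes. The changed genes all had a mean of at least 50 normalized counts, and both CKO sorts were shifted alike. Libraries were drawn independently, without a shared mouse. Recovery of lower genes, or of genes that differ between sorts, was not tested. On the recovered reads edgeR 4.0.16 (quasi-likelihood) called 11 genes and DESeq2 1.42.0 called 20. The chi-square per gene between replicates was 9.94 to 120.0, above counting error, and their correlations on the log2 scale were 0.937 to 0.974.

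Genes named by rule were the called genes without overlap and a mean of at least 50 normalized counts, up to 4 called genes or the 2 most abundant of each list described, and the deleted gene, sort markers and sex-linked genes. All others named were chosen after their values were seen. Members and lists were chosen with earlier results of these data known. Alternatives were other scalings, pseudocounts, filters and tools, a length and GC correction, thinning, blocks by mouse number, exclusion of chromosomes X and Y, a Y-linked covariate, a fold change limit and each library left out. Those that left out both libraries of a CKO mouse, or kept only control library 3, and the count of differences between sorts under each alternative, were chosen after seeing the data.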

Additional observations from a re-analysis of the deposited data

Results flagged for a closer look

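Among the genes called or free of overlap, the CKO sorts differed from each other for 5. The test set CKO IgMneg against CKO IgMhi libraries within the same limma fit. On the log2 scale the difference was 1.68 for *Folr4* (adjusted p = 0.00068), 2.03 for *Slpi* (adjusted p = 0.031) and 0.61 for *Glo1* (adjusted p = 0.036), each higher in CKO IgMneg cells. It was -0.70 for *Dnah8* (adjusted p = 0.044) and -0.53 for *Gbp7* (adjusted p = 0.033), each lower in CKO IgMneg cells. In *Folr4* and *Slpi* 1 of the 2 CKO IgMhi libraries lay within the control range. *Dnah8* and *Glo1*, which are adjacent on chromosome 17, were below control in both sorts, *Dnah8* further in CKO IgMneg and *Glo1* further in CKO IgMhi cells. Named genes that overlapped between CKO and control libraries also differed between the sorts. Such genes were *Ccnd2* (-1.68), *Lck* (0.90), *Spn* (0.85) and *Gpx4* (0.56), with limma adjusted p from 0.0004 to 0.046. The part of other cell types in the CKO IgMneg sort was not tested.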

How the results depend on the processing

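Apart from the limit on fold change, which left 9 called genes without *Folr4*, *Lmo7* and *Glo1*, 31 alternatives were run. The sign of the fold change was kept for the 12 called genes under all alternatives. *Arl2bp*, *C130026I21Rik* and *Dnah8* were called in 31 of 31 alternatives, with adjusted p of at most 0.0025, 0.027 and 0.032, and *Sfi1* in 30 (0.064 without the trend). *Ctps2* was called in 20 of 30, *Slpi* in 20, *Folr4* in 19, *Gpr176* in 18, *Lmo7* in 15, *Glo1* in 14, *Gadd45g* in 13 and *Lifr* in 12 of 31, and *Pirb*, not called in the reported fit, in 13. Over the 12 called genes and these alternatives, 254 calls were kept and 117 were lost. The number of called genes (12, with 8 higher and 4 lower) was 6 (4 and 2) without the trend, 22 (12 and 10) with array weights, 20 (11 and 9) with DESeq2, 7 (2 higher) with voom, 4 (2 and 2) with each CKO library weighted equally, 7 (3 higher) with the Y-linked sum as a covariate and 7 (4 higher) with control library 3 alone. Higher genes numbered 5 with 1 value per mouse, 4 with thinned libraries and 2 without both libraries of CKO mouse 3. Leaving out each library in turn gave 4 to 11 called genes, 2 to 6 higher and 2 to 6 lower.

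Genes without overlap (189 higher and 196 lower) numbered 125 and 99 under total count scaling, 667 and 625 with 1 value per mouse, 486 and 464 without CKO mouse 2, 583 and 543 without CKO mouse 3, and 1038 and 1007 with control library 3 alone. With a library left out they numbered 247 to 528 higher and 265 to 530 lower, since fewer libraries have to be apart. Of these genes, those that differed between the CKO sorts (3) numbered 5 with quantile normalization, 1 with total count scaling, 0 without the trend, 12 with array weights, 10 with edgeR, 10 with DESeq2, 13 with voom, 1 with thinned libraries, 1 without CKO mouse 2, 0 without CKO mouse 3, 30 with control library 3 alone and 0 to 15 with a library left out. The cause of these changes was not tested.

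Replicate numbers do not pair CKO with control mice, and deviations of same-numbered CKO and control libraries correlated at 0.018 to 0.096. With the number as a fixed block 33 genes were called, 18 higher and 15 lower, and 9 genes without overlap differed between sorts. CKO libraries of the same number, taken as the same mouse, correlated at 0.197 to 0.257. With the CKO mouse as a random block (correlation 0.26) 10 genes were called, 5 of them higher, *Folr4*, *Gadd45g* and *Lifr* were lost and *Pirb* was gained, and 14 genes without overlap differed between sorts. Depth limits low genes, since 104 of the 385 genes had under 10 reads in a control library.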
